A study of Bos taurus with 4 samples.

Results

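The genes described here build and seal the fluid cavity of the bovine blastocyst: the sodium pump beta subunits ATP1B1 and ATP1B3, the water and glycerol channel AQP3, the tight junction genes CLDN4, CLDN6, TJP1 and OCLN, the adherens junction gene CDH1 and the desmosome gene PKP2. They are 9 named genes, taken by symbol with every probe the platform annotation pairs with them (12 probes), of 15216 genes with a named probe. Of the 9, 8 had a probe bright enough to be tested, of 7879 genes tested in all. Transcripts were measured in Holstein morulas and blastocysts on 4 dual-colour Agilent arrays. Each array carried RNA of embryos from BHB_high cows, with over 0.9 mmol/l of the ketone body beta-hydroxybutyrate in the circulation, and RNA of embryos from BHB_low cows, with less than 0.9 mmol/l. The high BHB RNA was in Cy5 on arrays 1 and 2 and in Cy3 on arrays 3 and 4. Donors of both groups were postpartum dairy cows that had been superovulated with FSH and cloprostenol after aspiration of the dominant follicle and inseminated with sexed semen from 6 bulls, and their embryos were recovered on day 7. The source names and descriptions number 4 biological replicates, while the titles give arrays 3 and 4 the numbers 1 and 2 with the word dyeswap. The arrays were taken here as 4 biological replicates. The labels do not say how many cows or embryos went into an RNA, or how many embryos of a replicate were morulas. The p-values therefore measure the spread between these 4 pairs of RNAs.

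A blastocoel forms when the outer cells of the morula become the trophectoderm, a polarised epithelium. The sodium pump, an alpha subunit that moves the ions paired with a beta subunit that brings it to the membrane, sits on the basolateral side and exports sodium towards the inside of the embryo. Water follows through aquaporins, and tight junctions, adherens junctions and desmosomes keep the fluid in. As the samples were bulk RNA of mixed stages, fewer cells of a type and less RNA per cell cannot be told apart.

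The median spot intensity was 286 to 612 units in the high BHB channels and 213 to 387 units in the low BHB channels. A spot counted as above background where it exceeded the median plus 2 MAD of the negative control spots of its channel, which came to 299 to 681 units in the high and 229 to 404 units in the low BHB channels. Of all designed probes 33.4% to 40.5% passed in the high and 33.6% to 48.6% in the low BHB channels. The lowest high BHB share and the highest low BHB share were both on array 1. That array also had the widest ratios, with an SD over tested probes of 0.828, against 0.435 to 0.608 on the others. The log2 ratios of 2 arrays correlated across tested probes with Pearson's r between 0.0987 (arrays 1 and 3) and 0.375 (arrays 1 and 4), where probes are no independent replicates. Trophectoderm markers were present, with 11 of 12 listed genes tested. Of the markers of neighbouring tissues, 1 of 9 cumulus and granulosa genes, 2 of 6 blood genes with a probe, 0 of 6 endometrial genes and 1 of 8 oocyte genes were bright enough to be tested. FOXL2, FSHR and HAS2 of the cumulus list, PGR and OVGP1 of the endometrial list and GDF9 and BMP15 of the oocyte list were above background in no channel.

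Detection differed between probes of a gene and between the members. ATP1B1, the beta subunit that is paired with the main alpha subunit in most epithelia, had 1 probe, EMBV3_19532, and it was above background in 0 of 4 high and 1 of 4 low BHB channels. Its spot read 426, 293, 655 and 279 units in the high BHB channels and 359, 369, 359 and 188 in the low BHB channels of arrays 1 to 4, close to the control spots in both groups, so that no level or ratio is given for it. ATP1B3 had 3 probes. EMBV3_36240 was above background in all 8 channels, while EMBV3_32433 and EMBV3_13248 were above it in none. AQP3 had 2 probes, of which EMBV3_21920 was above background in all channels and EMBV3_22514 in 2 high and 2 low BHB channels. The 5 junction genes CLDN4, CLDN6, TJP1, OCLN and PKP2, with 1 probe each, were above background in every channel.

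CDH1, E-cadherin, the adhesion molecule of compaction, stood at the edge of detection with its only probe, EMBV3_10570. It read 503, 302, 777 and 297 units in the high BHB channels, where the thresholds were 459, 299, 681 and 310.5, and 337, 403, 376 and 242 units in the low BHB channels, where they were 339, 404, 385 and 229. It was thus above background in 3 high and 1 low BHB channels, and with the mean plus 2 SD of the control spots as the threshold (2 high, 1 low) it would not have been tested. In the plot of intensity over threshold CDH1 and ATP1B1 lie on the line, and the bright ATP1B3 probe and, on arrays 3 and 4, CLDN6 lie highest above it.

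**Figure D1:**
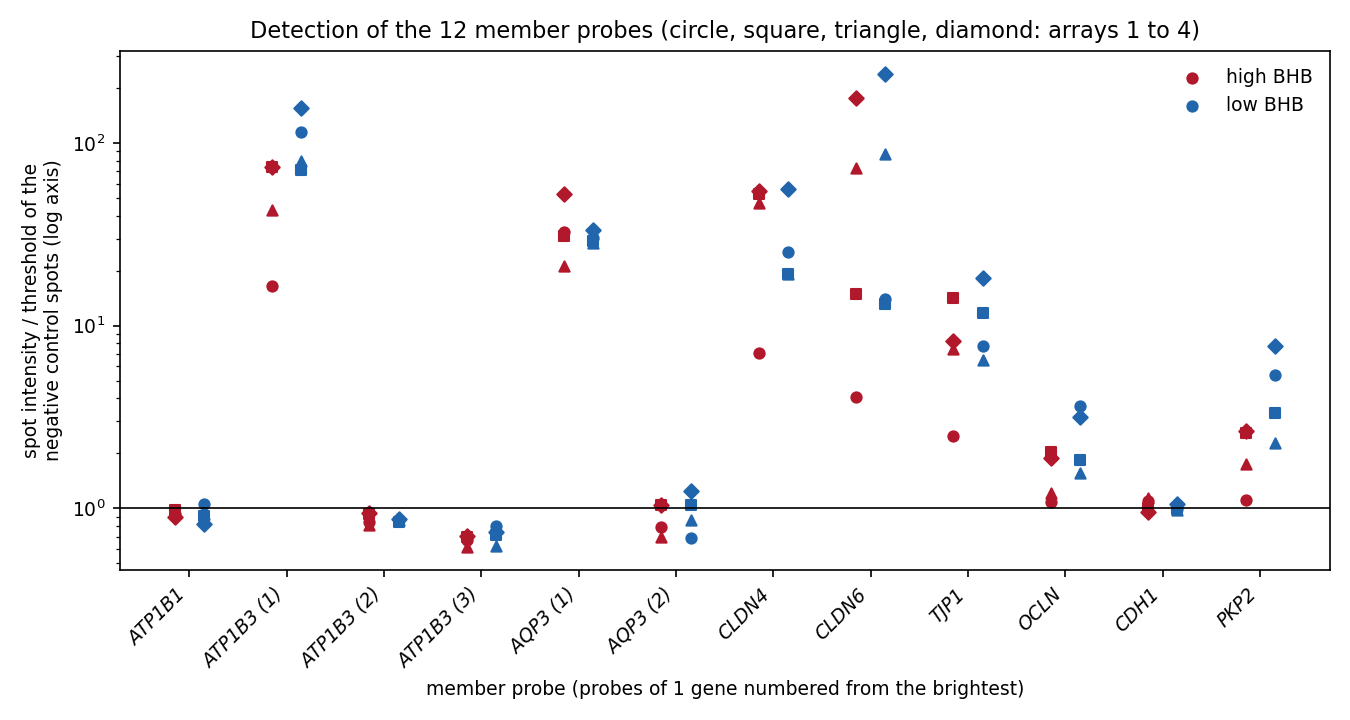
Spot intensity divided by the threshold of the negative control spots of the same channel (log axis) for the 12 member probes, high BHB (red) left of low BHB (blue), with 1 symbol per array. ATP1B1, 2 of 3 ATP1B3 probes and the second AQP3 probe lie around or below the line at 1, CDH1 lies around it, and the brightest probe of ATP1B3, AQP3, CLDN4 and CLDN6 lies well above it.

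Between the groups no member passed the test. Limma, with Benjamini-Hochberg adjustment over 16575 tested probes, called 0 of the 8 tested members at an adjusted p under 0.05, where it called 2 probes in all (0.0121% of those tested), neither of them a member. At an unadjusted p under 0.05 there were 3 members, AQP3 with a ratio above 0 and ATP1B3 and PKP2 with ratios below 0. Over all tested probes 14.9% reached that unadjusted threshold, 4.93% with higher and 10% with lower ratios. Ratios had 1 direction on all 4 arrays for 2 of the 8 members, AQP3 above 0 and PKP2 below 0. Of all tested probes 9.54% were above 0 and 13.9% below 0 on all 4 arrays, 23.4% together, so that this count lies at the background. An exact sign-flip test of 1 gene over 4 arrays cannot go below p = 0.125.

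Of the sodium pump, ATP1B3 was the only member measured. It is the beta subunit that can take the place of ATP1B1. Its spot intensity was 7586, 22154, 29364 and 23064 units in the high BHB channels and 38628, 28886, 30650 and 35409 units in the low BHB channels of arrays 1 to 4. The low BHB channels lay within a narrow band, and the high BHB channel of array 1 was far below the others. The log2 ratios of high over low BHB were -1.87, 0.13, -0.29 and -0.87, below 0 on 3 arrays and just above it on array 2. The mean was -0.73 ± 0.87 (SD, n = 4), or 0.604-fold with a 95% interval of 0.373 to 0.979 from limma (unadjusted p = 0.043, adjusted p = 0.326). After normalization within and between arrays the log2 level was 14.21 ± 0.71 in the high BHB and 14.93 ± 0.20 in the low BHB channels (SD, n = 4 each), and the groups overlapped. Without array 1 the mean ratio was -0.34.

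AQP3 passes water and glycerol and is a basolateral channel of the trophectoderm in mouse blastocysts. Its bright probe read 14889, 9280, 14481 and 16294 units in the high BHB channels and 10230, 11771, 10868 and 7688 units in the low BHB channels. The log2 ratios were 1.20, 0.21, 0.12 and 0.83, all above 0, large on arrays 1 and 4 and small on arrays 2 and 3. The mean was 0.59 ± 0.51 (SD, n = 4), or 1.51-fold with an interval of 1.04 to 2.19, which did not pass in limma (unadjusted p = 0.035, adjusted p = 0.314). Normalized log2 levels were 14.35, 13.49, 13.48 and 13.61 in the high BHB channels and 13.15, 13.28, 13.36 and 12.79 in the low BHB channels. These did not overlap, as was the case in this direction for 1.16% of tested probes, although the lowest high BHB level and the highest low BHB level lay close together. Without array 1 the mean ratio was 0.39. The dim second probe had ratios of 0.85, 0.17, -0.78 and -0.24, of both signs, at the background.

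**Figure D2:**
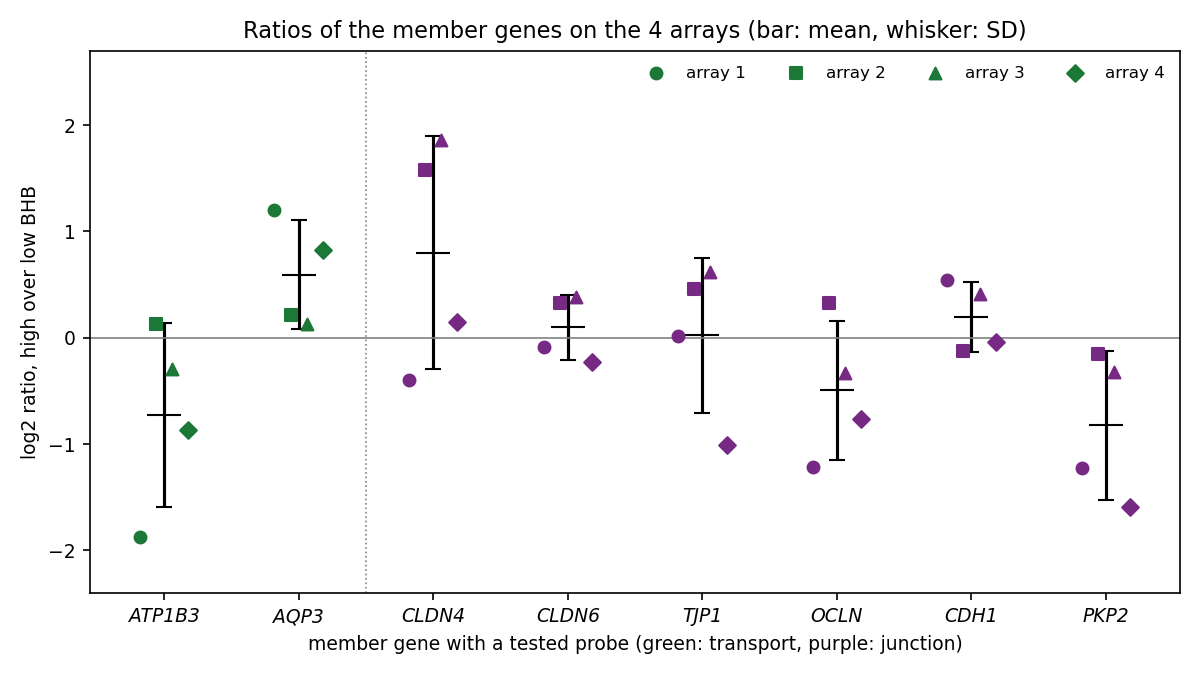
Log2 ratio of high over low BHB (vertical axis) on each array for the 8 members with a tested probe, transport genes in green and junction genes in purple, with the mean (bar) and SD (whisker) over 4 arrays. AQP3 lies above 0 and PKP2 below 0 on every array, and for every other gene at least 1 array lies on the other side of 0.

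Among the tight junction genes CLDN4 had the highest ratio of any member. It codes for claudin 4, a barrier claudin of tight epithelia. Its spot read 3267, 15622, 32139 and 17014 units in the high BHB channels and 8522, 7739, 7420 and 12867 units in the low BHB channels. The log2 ratios were -0.40, 1.58, 1.86 and 0.15, so that arrays 2 and 3 carried the difference and array 1 had the other direction. The mean of 0.80 ± 1.10 (SD, n = 4) was 1.74-fold, with an interval of 0.989 to 3.07 that included 1 (limma, unadjusted p = 0.054, adjusted p = 0.336). Normalized log2 levels spread over 12.53 to 14.68 in the high BHB and over 12.68 to 13.58 in the low BHB channels, so that the groups overlapped. The mean ratio was 1.20 without array 1, 0.54 without array 2 and 0.45 without array 3.

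CLDN6, claudin 6, is a claudin of embryonic epithelia. Its log2 ratios were small, at -0.09, 0.33, 0.38 and -0.23, with a mean of 0.10 ± 0.30 (SD, n = 4) and an interval of 0.772-fold to 1.48-fold (limma, adjusted p = 0.853). Its level differed between arrays in both groups alike. The spot read 1867, 4431, 49756 and 54560 units in the high BHB channels and 4711, 5289, 33585 and 54400 units in the low BHB channels of arrays 1 to 4. Normalized between arrays, its log2 level was 11.84, 12.38, 15.40 and 15.33 in the high BHB channels and 11.93, 12.05, 15.02 and 15.56 in the low BHB channels. Over the mean of both channels the highest array stood 11.8-fold above the lowest, a range that 0.243% of tested probes equalled or exceeded. That range was 3.56 on the log2 scale for CLDN6 and 0.38 to 1.03 for the other 7 tested members. Arrays 1 and 2 had the low CLDN6 levels and arrays 3 and 4 the high ones, in the Cy5 and the Cy3 channel of each array alike. No member spot was at the scanner's maximum.

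**Figure D3:**
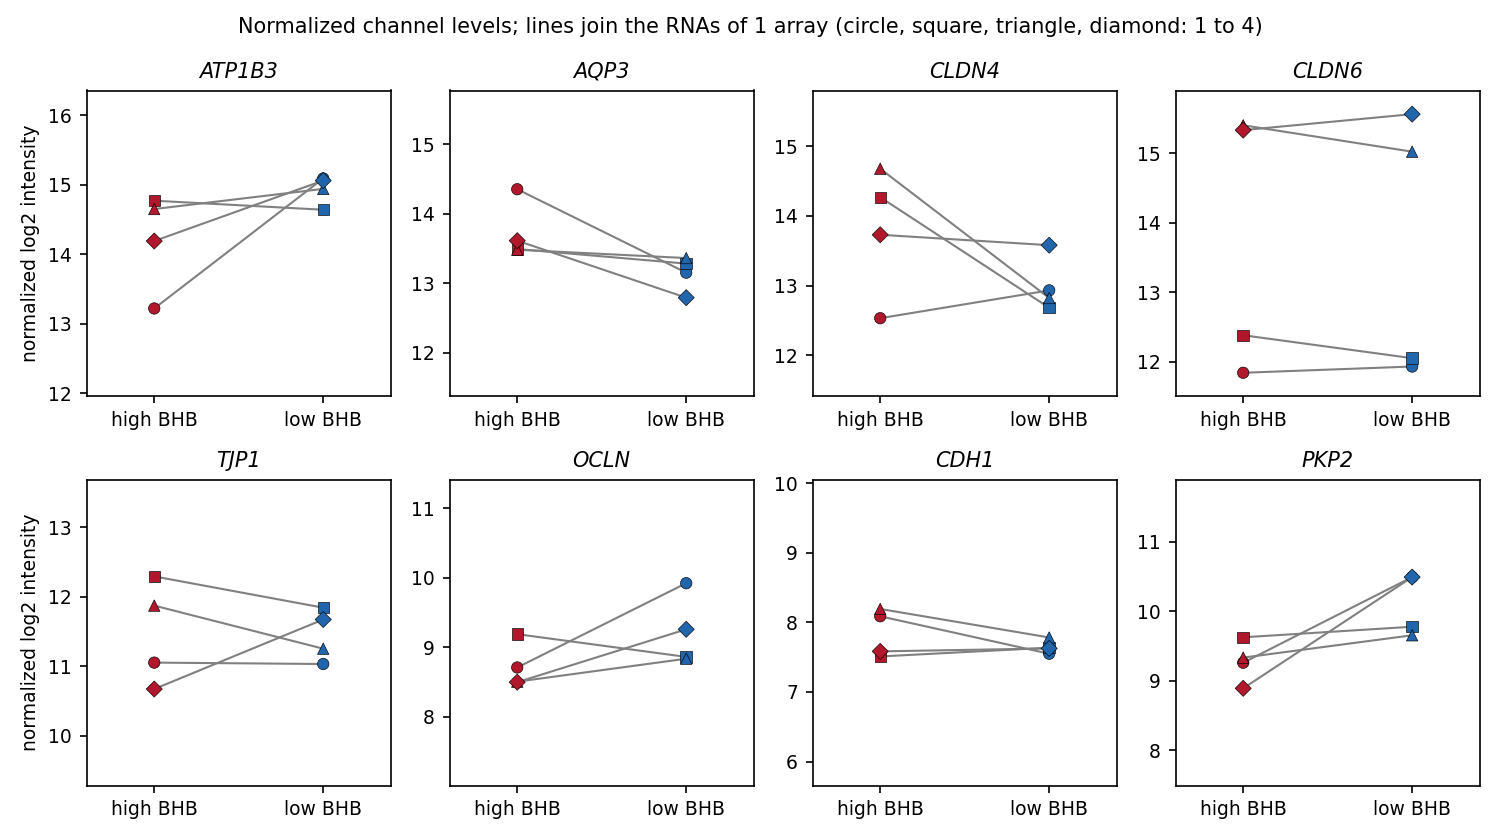
Normalized log2 intensity of the 8 tested members in the high BHB (red, left) and low BHB (blue, right) channels, with a line joining the RNAs of 1 array and each panel spanning the same number of log2 units. CLDN6 lies near 12 on arrays 1 and 2 and above 15 on arrays 3 and 4 in both groups, AQP3 levels are higher and PKP2 levels lower in all high BHB channels than in any low BHB channel.

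TJP1 codes for ZO-1, the scaffold under the tight junction, and OCLN for occludin, a membrane protein of the tight junction strands. The log2 ratios of TJP1 were 0.02, 0.46, 0.62 and -1.01, and its mean of 0.02 ± 0.73 (SD, n = 4) took both signs across processing settings (limma, adjusted p = 0.976, interval 0.655-fold to 1.57-fold). OCLN read 500, 609, 824 and 585 units in the high BHB channels and 1228, 743, 605 and 729 units in the low BHB channels. It was dim in the high BHB channels of arrays 1 and 3, at little over the threshold of 459 and 681 units. Its log2 ratios were -1.21, 0.33, -0.33 and -0.76, below 0 on 3 arrays, with a mean of -0.49 ± 0.65 (SD, n = 4), 0.710-fold with an interval of 0.469 to 1.07 (limma, unadjusted p = 0.094, adjusted p = 0.383). Without array 1 the mean was -0.25, and without array 2 it was -0.77. Groups overlapped in the normalized levels of both genes.

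PKP2, plakophilin 2, links desmosomal cadherins to desmoplakin and keratin. It had the lowest ratio of any member and the smallest p. The spot read 510, 770, 1187 and 827 units in the high BHB channels and 1817, 1350, 883 and 1782 units in the low BHB channels. The log2 ratios were -1.23, -0.15, -0.32 and -1.60, below 0 on each array and far below it on arrays 1 and 4. The mean of -0.82 ± 0.70 (SD, n = 4) was 0.564-fold with an interval of 0.368 to 0.866, and it did not pass in limma (unadjusted p = 0.014, adjusted p = 0.275). Normalized log2 levels were 9.26, 9.62, 9.33 and 8.89 in the high BHB channels and 10.49, 9.78, 9.65 and 10.49 in the low BHB channels. The groups did not overlap, by a margin of hundredths between the highest high BHB and the lowest low BHB level, and 2.16% of tested probes lay apart in this direction. CDH1 had log2 ratios of 0.54, -0.13, 0.41 and -0.04, with a mean of 0.20 ± 0.33 (SD, n = 4, limma, adjusted p = 0.681) at intensities near the control spots, and it passed the filter on dim probes through the high BHB channels only.

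Set against each other, ion and water transport did not separate from junction genes. The 2 tested transport genes had opposite ratios, 1 above and 1 below 0, and the 6 junction genes had 4 above and 2 below. Of these 4, CDH1 was near background and passed the filter through the high BHB channels only. TJP1, at 0.02, took both signs across settings. Over all tested probes 46.7% had a mean above 0 and 53.3% below. The median of gene means was -0.07 for transport and 0.06 for junction genes, and -0.04 over all tested named genes. With detection at the mean plus 2 SD of the control spots, which leaves CDH1 out, the junction median was 0.02. By array the transport median minus the junction median was -0.09, -0.16, -0.48 and 0.47, with a mean of -0.06 ± 0.40 (SD, n = 4), smaller than its spread. The spread lay within each set. AQP3 had a higher log2 ratio than ATP1B3 on all 4 arrays, by 3.07, 0.09, 0.42 and 1.70. Within the junction genes CLDN4 had a higher ratio than PKP2 on all 4 arrays, by 0.83, 1.73, 2.18 and 1.75. CLDN4 and PKP2 were taken as the members with the highest and the lowest mean ratio. Of 28 pairs of tested members 9 kept 1 order on all 4 arrays. These pairs share genes, CDH1 near background among them, and the share over pairs of other probes was not computed.

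Arrays 1 and 4 resembled each other across all tested probes (r = 0.375), and most members shared the 2 arrays with the highest ratios. For 6 of the 8, ATP1B3, CLDN4, CLDN6, TJP1, OCLN and PKP2, arrays 2 and 3 gave the 2 highest ratios, as for 21.6% of the 16467 tested probes measured on every array. AQP3 ran the other way, with its 2 highest ratios on arrays 1 and 4, as for 20.5% of these probes. For CDH1, near background, they were on arrays 1 and 3 (12.4%). The genes were measured in the same 4 pairs of RNAs, so that these orders are descriptions of those pairs. Markers of embryonic cell types varied over arrays as well. The trophectoderm keratins KRT8 and KRT18 had log2 ratios of -1.45, 0.40, 0.07 and -0.32 and of -1.04, 0.30, 0.59 and -0.82. KRT8 was near the top of the scanner's range in most channels and at it in the high BHB channel of array 3, so that its ratio on array 3 is only a bound. KRT19 had 0.52, 1.20, 2.31 and -0.80. The transcription factor GATA2 was even over arrays, with 0.51, 0.45, 0.54 and 0.89 (mean 0.60 ± 0.20, SD, n = 4, limma unadjusted p = 0.014, adjusted p = 0.275). PAG2, a pregnancy-associated glycoprotein, had a mean of -0.55 ± 0.56 and was above background in 1 high and 3 low BHB channels. Of the trophectoderm list 6 of 11 tested genes were above 0 and its array medians were 0.12, 0.02, 0.20 and -0.06. Its summed normalized level was 65300 to 121500 units in the high BHB and 91450 to 125700 units in the low BHB channels.

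Hypoblast is the layer that comes to line the blastocyst cavity. All 5 tested markers had mean ratios above 0, as had 46.7% of all tested probes. In limma 3 of them had an unadjusted p under 0.05, against 4.93% of tested probes in that direction, and 0 had an adjusted p under 0.05. The array medians of the list were 0.39, 1.04, 1.17 and -0.03. Its genes differed in their order of arrays. HNF4A had 0.09, 1.55, 2.65 and -0.03 and FN1 -0.99, 1.75, 1.18 and -0.22, both highest on arrays 2 and 3, as CLDN4 was. FN1 was near the top of the scanner's range on array 4 (64754 units high, 63397 low BHB) and in the low BHB channel of array 1 (62652), which limits these ratios. COL4A1 was even over arrays, with 1.22, 1.04, 1.17 and 1.12 (mean 1.14 ± 0.078, SD, n = 4, limma unadjusted p = 0.00019, adjusted p = 0.202). GATA4 was highest on arrays 4 and 1, as AQP3 was on arrays 1 and 4, with 0.77, 0.57, 0.04 and 0.85 (unadjusted p = 0.030, adjusted p = 0.304). The summed level of the list, most of it from FN1, was 46860 to 76870 units in the high BHB and 22670 to 81210 units in the low BHB channels. SOX17 was above background in no channel. In the inner cell mass list 3 of 5 tested genes were below 0, as were 53.3% of all tested probes. The array medians were -0.42, 0.19, -0.09 and -0.19. Means were -0.41 ± 0.27 for SOX2, -0.27 ± 0.51 for POU5F1 and -0.87 ± 1.69 for NANOG, which had -3.38 on array 4. KLF4 and LIN28B went the other way, with 0.17 ± 0.45 and 0.17 ± 0.30. The summed level of this list was 7774 to 16450 units in the high BHB and 7894 to 13570 units in the low BHB channels. Of the blood list PTPRC, which codes for the leukocyte antigen CD45, had probes that differed. EMBV3_42792 was bright, with 18467 to 40830 units in the high BHB and 16560 to 28171 units in the low BHB channels. EMBV3_39355 was above background in 0 high and 0 low BHB channels. The log2 ratios of the bright probe, 0.59, -0.07, 0.34 and 0.84, were highest on arrays 4 and 1, beside 1.20, 0.21, 0.12 and 0.83 for AQP3. The summed level of the blood list, most of it from this bright probe, was 24340 to 37810 units in the high BHB and 17480 to 30060 units in the low BHB channels. CORO1A and LYZ were above background in no channel. HBA had a mean of 0.25 ± 0.40, INHBA of the cumulus list -0.05 ± 0.89 and ZP3 of the oocyte list -0.04 ± 0.52. The part of these cell types, and of embryo stage, in the members' ratios was not tested.

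**Figure D4:**
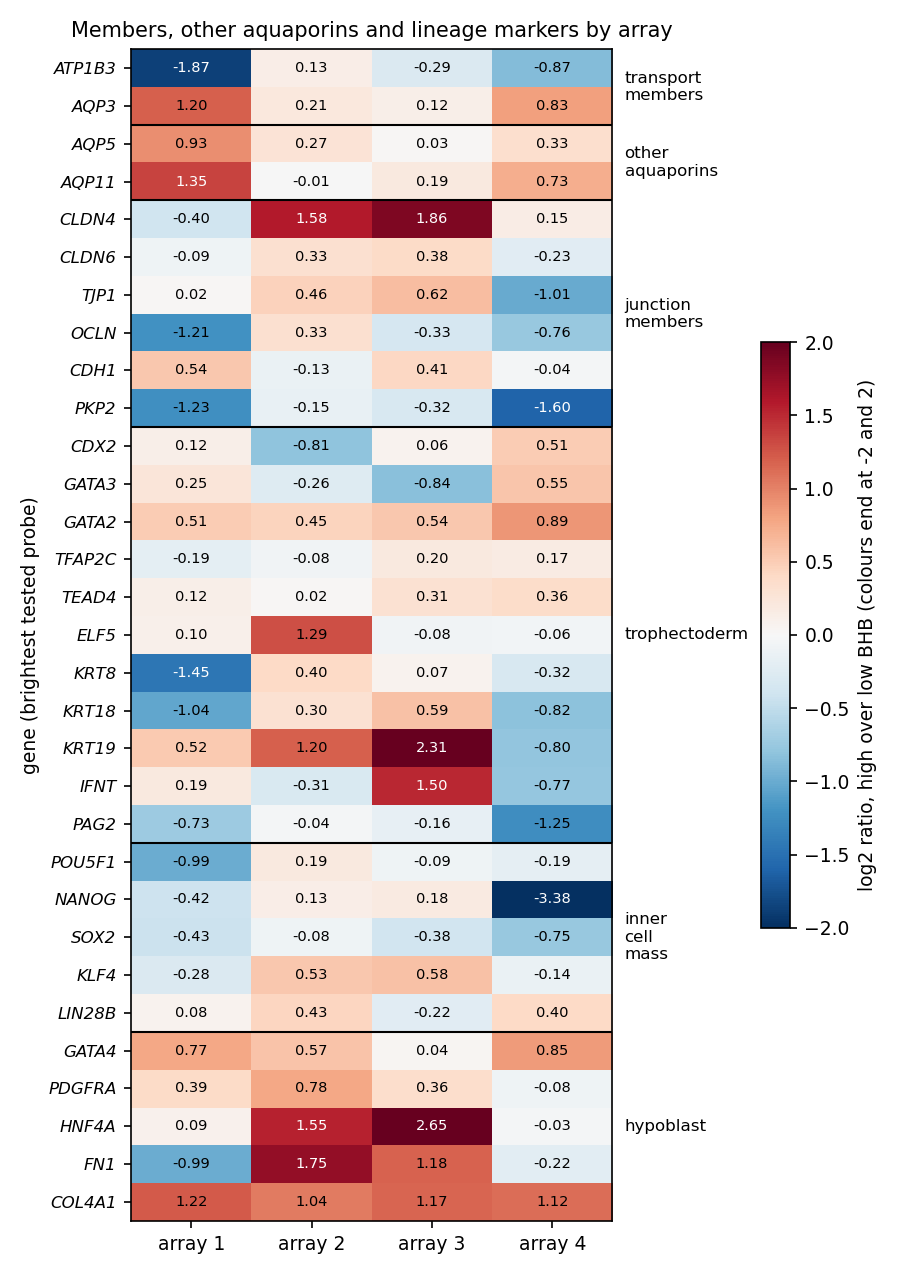
Log2 ratios of high over low BHB on each array (columns) for the tested members, the other tested aquaporins and the tested lineage markers (rows), printed in each cell and coloured from -2 (blue) to 2 (red). AQP3, AQP5 and AQP11 have their highest values on arrays 1 and 4, and CLDN4, KRT19, HNF4A and FN1 on arrays 2 and 3. Of all tested probes measured on every array, 20.5% have their 2 highest ratios on arrays 1 and 4 and 21.6% on arrays 2 and 3.

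Other genes of the same machinery were read from lists chosen with earlier results of these data known. Of 101 listed genes 88 had a named probe and 38 were tested. None passed the adjusted threshold in limma, and at an unadjusted p under 0.05 there were 1 higher and 3 lower, against 4.93% and 10% of all tested probes. Of the 3 lower genes, SCNN1A and ROCK2 were above background on 3 or more arrays in the low BHB channels only, so that the filter on dim probes favoured that direction. The median log2 ratio of the 38 was 0.05 (25 above 0, 13 below), beside -0.04 over all named genes.

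Besides AQP3, 2 of 9 aquaporins with a probe were tested, AQP11, an intracellular channel, and AQP5, a water channel of apical membranes in glands. AQP11 had log2 ratios of 1.35, -0.01, 0.19 and 0.73 (mean 0.57 ± 0.61, SD, n = 4, limma adjusted p = 0.337). AQP5 had 0.93, 0.27, 0.03 and 0.33 (mean 0.39 ± 0.38, adjusted p = 0.399). It was dim, at 389, 487, 434 and 234 units in the low BHB channels, where the thresholds were 339, 404, 385 and 229. The means of AQP11 and AQP5 stayed above 0 under each of the 17 alternative settings, as did that of AQP3. Array 1 gave the highest ratio of each of the 3, and array 4 the next. Arrays 1 and 4 also gave the 2 highest ratios for 20.5% of all tested probes measured on every array. AQP1, AQP2, AQP8 and AQP9 were above background in no channel.

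Of the other pump and ion transport genes 4 of 17 with a probe were tested. SCNN1A, the alpha subunit of the epithelial sodium channel that lets sodium in across apical membranes, had log2 ratios of -1.27, -0.82, -0.60 and 0.09 (mean -0.65 ± 0.57, SD, n = 4, limma unadjusted p = 0.027, adjusted p = 0.301). It was above background in 2 high and 4 low BHB channels. NHERF1, a scaffold of sodium-proton exchangers, had 0.23, 0.36, 0.88 and 0.53, all above 0 (mean 0.50 ± 0.28, unadjusted p = 0.038, adjusted p = 0.320). ATP1B2, another beta subunit, had a mean of 0.28 ± 0.18 with all arrays above 0 (adjusted p = 0.513), and it was above background in 3 high and 1 low BHB channels.

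Of the other tight junction genes 9 of 23 with a probe were tested, with means from -0.13 (CLDN1) to 0.24 (JAM3) and a median of 0.0083. Some of them were dim, which limits what this range can show. CLDN1 read 475, 319, 691 and 316 units in the high BHB channels, where the thresholds were 459, 299, 681 and 310.5. JAM3 was above background in 3 high and 4 low BHB channels. CLDN10 had 0.23 ± 0.17, above 0 on all 4 arrays but -0.26 after median centring. Of the other adherens junction genes, CTNND1 (p120 catenin, which binds the tail of cadherins) had 0.45 ± 0.53, above 0 on all 4 arrays. Its other tested probe had -0.01, and its further probes were too dim to be tested. CTNNB1 (beta-catenin) had -0.30 ± 0.66 and CTNNA1 (alpha-catenin) 0.03 ± 0.74, of which CTNNA1 took both signs across settings. Of the other desmosome genes, JUP (plakoglobin) had 0.22 ± 0.32, PKP4 0.22 ± 0.78 and PPL (periplakin) 0.24 ± 1.01, while DSG2 (desmoglein 2) had -0.09 ± 0.58 and DSP (desmoplakin) -0.08 ± 0.34. PKP4 and PPL turned below 0 after median centring and each without 1 array (array 1 for PKP4, array 3 for PPL). In limma the adjusted p of the genes named here, each by its brightest tested probe, lay between 0.384 and 0.963, and no difference from PKP2 was tested. The gap junction genes GJB1 and GJB5 had 0.22 ± 0.25 and 0.06 ± 0.59, of which GJB5 took both signs across settings.

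Among 12 tested polarity genes ROCK2, a kinase that drives actomyosin contraction, had the lowest ratio of all 38 genes. It was above background in 0 high and 3 low BHB channels, and its log2 ratios were -1.53, -1.40, -0.20 and -1.88. The normalized log2 level averaged 7.08 in the high BHB and 8.34 in the low BHB channels. The ratio was 0.419-fold with a 95% interval of 0.271 to 0.649 (limma, unadjusted p = 0.0014, adjusted p = 0.204). As no high BHB channel was above background, this fold is only a bound. ROCK2 passed the filter on dim probes through the low BHB channels only. On array 3 its spot was below the threshold in both channels. The related kinase ROCK1 had -0.03 ± 0.51. RDX, radixin, which ties membrane proteins to actin, had -0.58, -0.16, -1.14 and -0.25 (mean -0.53 ± 0.44, unadjusted p = 0.043, adjusted p = 0.326). PRKCZ, an atypical protein kinase C of the apical domain, had 0.46 ± 0.68.

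**Figure D5:**
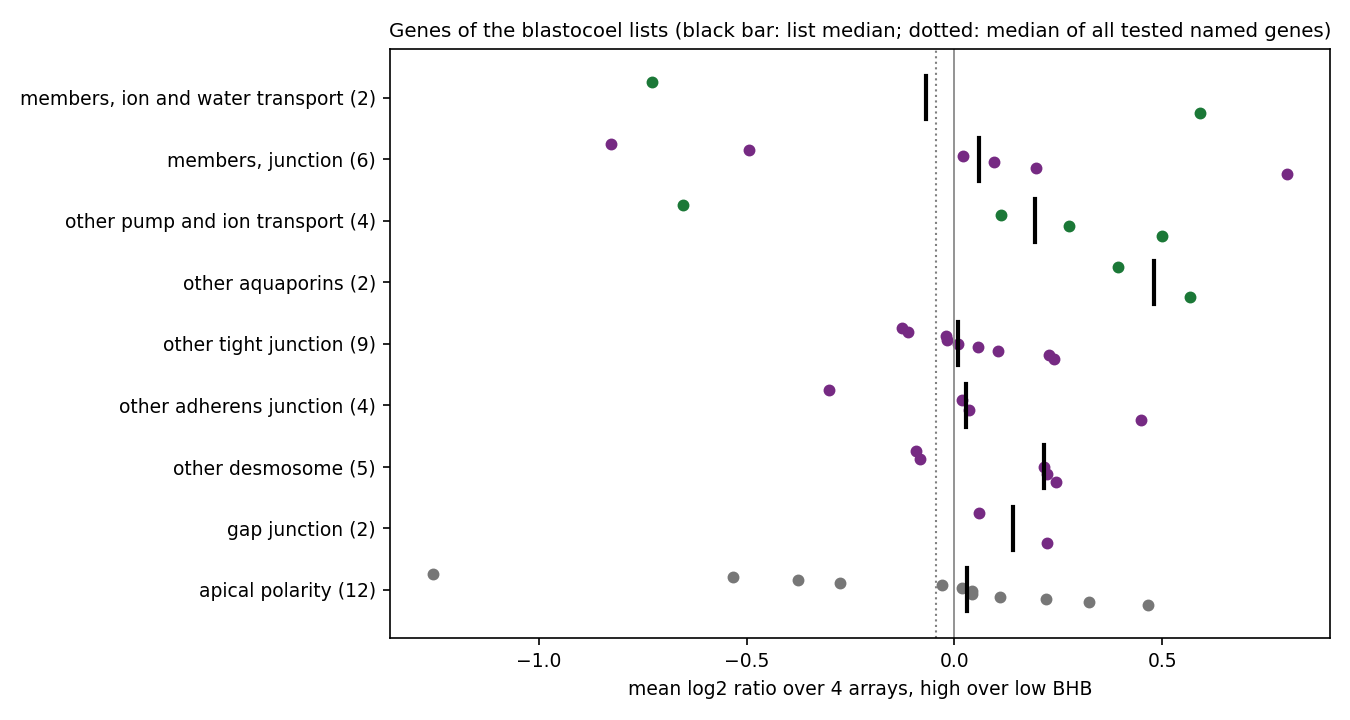
Mean log2 ratio of high over low BHB over 4 arrays (horizontal axis) for each tested gene of the blastocoel lists, with the number of tested genes in parentheses, the list median as a black bar and the median of all tested named genes (-0.04) as a dotted line. The 2 transport members lie on opposite sides of 0, both other aquaporins lie above it, and the other tight junction genes, some of them dim, lie between -0.13 and 0.24.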

How the data were processed

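RNA was amplified before labelling, per the labels' protocols. Per the file headers, the deposited scanner files hold raw median intensity values for spots and for the area around them, for Cy5 and Cy3. A deposited table holds the authors' log2 ratios, which correlated at r = 0.967 to 0.992 with the ratios used here, turned to high over low BHB. The submitters' processing notes name limma, and the further steps are not given in the sources used here. Channels were read by name, since their order differs in the file of array 4, and 4 columns of a further deposited table were not used. Spots set aside by the scanner software (95 to 114 per array) were left out. Background was corrected with normexp (offset 50), fitted without these spots because an earlier analysis had found that they distort the fit, and ratios were normalized by loess (span 0.3). Of 43794 probes, 16575 were tested: those above the control threshold in the channel of 1 group on at least 3 arrays. Limma 3.58.1 in R 4.3.3 was fitted over these, and tested on simulated data. Levels were also quantile-normalized between arrays (Aquantile). Symbols came from the platform annotation (21790 probes with 1 symbol, 22004 without), updated through RefSeq names of ARS-UCD2.0 (20025 current, 1524 synonyms, 241 neither), and the brightest tested probe stood for a gene. In each list the 3 genes with the smallest p were named, and a few others after their values were seen. The members and lists were chosen with earlier results of these data known. All arrays are areas of 1 slide by their file labels, and each holds both groups. Alternatives covered background, normalization, detection, filter, dye, pairing and leaving out each array. Probe and protein sequences were not used here.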

Additional observations from a re-analysis of the deposited data

Results flagged for a closer look

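The normalized log2 level of AQP3 in the high BHB channel of array 1 was 14.35, far above the other high BHB channels at 13.48 to 13.61, a gap wider than Dixon's test allows for 4 values. It was 1 of 27 sets of 4 values examined, and chance flags about 1 in 20 such sets.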

How the results depend on the processing

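The number of members at an adjusted p under 0.05 in limma was 0 under each alternative but 1. With the arrays that share a number in their titles averaged, 3 passed, ATP1B3 (adjusted p = 0.031), CLDN4 (0.015) and PKP2 (0.012), and 5 had an unadjusted p under 0.05. That setting called 1531 of all tested probes, against 2, and leaves 2 values per probe. It takes these numbers, which stand beside the word dyeswap for arrays 3 and 4, as shared RNA. The source names and descriptions give 4 biological replicates. Other settings called 0 to 3 probes. Without 1 array, 1 to 4 members had an unadjusted p under 0.05, fewest without array 4, and the difference of transport and junction medians ran from -0.32 to 0.03. Over the other settings it ran from -0.26 to 0.12. TJP1 turned below 0 with normexp on all spots (-0.00044), without background correction (-0.0085), after median centring (-0.46), with the deposited log2 ratios (-0.026), without array 2 (-0.12) and without array 3 (-0.18). Leaving out 1 array moved it between -0.18 and 0.36. CLDN6 turned below 0 after median centring (-0.43). The other 6 tested members kept their sign under each of 15 to 17 alternatives. Median centring moved the median of all tested probes to -0.17, against -0.03, and left 1 member with 1 direction on all arrays. It lowered AQP3 to 0.29 (limma, unadjusted p = 0.261) and CLDN4 to 0.40 (unadjusted p = 0.382), against 0.59 and 0.80, and put OCLN at -0.79 (unadjusted p = 0.043). With channels unpaired (no replicate block) 2 members had an unadjusted p under 0.05 and 0 probes passed. A dye term passed for 0 of 16575 probes, with 610 at an unadjusted p under 0.05, and none of these was a member. Signal over background limits what can be said of ATP1B1 and CDH1.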
